A study of Mus musculus with 39 samples.

Results

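The genes described here encode the proteins of the cytosolic ribosome in mouse liver. They were taken as all RefSeq symbols that begin with Rpl or Rps and a digit, together with Rplp0, Rplp1, Rplp2 and Rpsa. The kinases named Rps6k, the gene Rps19bp1 and symbols that carry the pseudogene suffix "-ps" were left out. RefSeq held 94 such genes, and 83 of them were read by a probe of the array, among 17016 genes tested in all. Of the 83, 43 encode proteins of the large subunit, 31 encode proteins of the small subunit, 3 form the acidic stalk and 6 are divergent paralogs (Rpl3l, Rpl22l1, Rpl39l, Rpl7l1, Rpl36al and Rps27l). Of the 11 genes without a probe, 5 are protein coding and 6 are pseudogenes. For a gene with several probes the brightest one in liver stood for it, which applied to 30 of the 83 members. No measured difference between groups was used to choose the members.

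The livers came from 39 male C57BL/6J mice (spelled C57BL6/J in the labels), without any engineered allele, that were singly housed and 5 to 6 weeks old when the work began. Aggressor-exposed (AggE) mice spent 6 hrs a day in a small cage inside the home cage of a trained SJL male, without food, and were attacked up to 3 times a day, for 5 or 10 days. Control (Ctrl) mice followed the same schedule without an aggressor, so the control livers also carry the confinement and the isolation, and shortly before collection the mice were shown the aggressor across a partition. Liver RNA was hybridised on dual dye arrays against a pooled cell line reference, with 1 mouse to an array.

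Liver was taken 24 hrs post-5-day stressor from 4 Ctrl and 5 AggE mice, and 24 hrs post-10-day stressor from 4 Ctrl and 5 AggE mice. It was taken 1.5 wks post-5-day stressor from 4 Ctrl and 5 AggE mice, and 4 wks post-10-day stressor from 6 Ctrl and 6 AggE mice. The mice of each group were separate animals. Each comparison asks whether AggE and Ctrl livers of one time point differed in these transcripts, and 3 further comparisons ask whether that difference changed between regimens or over the rest period.

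Each ribosome is built from ribosomal RNA and about equal amounts of each ribosomal protein. The small subunit reads the messenger RNA, the large subunit joins the amino acids, and the stalk recruits the factors that drive elongation. Ribosomal protein messengers are among the most abundant in a cell. Many of them begin at a C followed by a run of pyrimidines, the 5′ terminal oligopyrimidine (TOP) motif, through which growth signalling by mTORC1 sets how strongly they are translated. An array measures the amount of the messenger and not its translation.

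The start of the messenger is shown first because it is the sequence feature that the family is known for. RefSeq (build GRCm38.p6) gave 75 annotated starts for 63 of the members. Each window below holds the 10 bases before the annotated start and the 20 bases from it, 5′ to 3′ on the strand of the gene. Capitals mark an unbroken run of C and T that begins with C exactly at the start and is at least 5 bases long. The run stood at the start of 13 members, of which 7 are shown as examples of several classes and lengths:
Rps6, chr4:86857348-86857377, minus strand: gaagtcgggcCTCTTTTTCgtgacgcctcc
Rpl28, chr7:4792955-4792984, plus strand: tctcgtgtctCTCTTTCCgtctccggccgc
Rpl35a, chr16:33056472-33056501, plus strand: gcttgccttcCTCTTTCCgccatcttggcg
Rpl38, chr11:114668570-114668599, plus strand: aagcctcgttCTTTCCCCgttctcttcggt
Rps18, chr17:33955646-33955675, minus strand: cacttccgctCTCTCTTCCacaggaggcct
Rps10, chr17:27635225-27635254, minus strand: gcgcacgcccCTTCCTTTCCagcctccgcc
Rplp2, chr7:141447641-141447670, plus strand: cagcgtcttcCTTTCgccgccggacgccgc

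These members did not have it at the annotated start and are shown because the comparisons below turn on them:
Rpl5, chr5:107900518-107900547, plus strand: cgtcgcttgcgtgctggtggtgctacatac
Rpsa, chr9:120127756-120127785, plus strand: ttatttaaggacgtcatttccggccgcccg
Rpl27a, chr7:109519185-109519214, plus strand: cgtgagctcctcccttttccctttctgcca
The window of Rpl27a holds a long pyrimidine stretch that does not begin with C at the annotated position. The search depends on the annotated start to the base, and an absent match says only that these letters are not at that position.

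The members with the run that are not shown are Rpl14, Rpl15, Rpl35, Rps15a, Rps21 and Rps27, and the longest run, of 13 bases, was that of Rpl15. The run stood at 13 of the 75 member starts, or 17.3%, against 823 of 32851 starts of all genes in the table, or 2.51%. It stood at 0 of 75 starts of mitochondrial ribosomal protein genes, which encode the separate ribosome of that organelle, and at 0 of 35 starts of proteasome subunit genes. A run of at least 8 pyrimidines anywhere in the window was found at 24 member starts (32%) and at 8.68% of all starts. The family therefore carried the letters of the motif at a higher share of its starts than the table as a whole, and most members lacked it at the annotated base.

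The livers carried the markers of their tissue. All 8 hepatocyte markers on the array (such as Alb and Apoa1) were well above background on every array of every group. The share of all probes well above background ran from 19.9% to 79.6% between arrays, and the 25 arrays of the first scan day had a lower median (37.0%) than the 14 of the second (62.0%). The members were bright throughout. Their median liver signal exceeded that of 98.3% of genes. Between 77 and 82 of the 83 were well above background on an array, and 77 were so on all 39. No spot of a member was saturated in the liver channel. Saturation in the reference channel, where most members were brighter, was not checked. Rpl39l, the paralog of Rpl39 best known from testis, was not well above background on any array. Rpl3l, the paralog of Rpl3 known from striated muscle, was so on 8 arrays and Rpl21 on 9.

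The level of a member is given as the log2 ratio of its liver signal to its signal in the cell line reference. Because each probe has its own brightness and reference level, a ratio of one gene ranks its abundance against the cell lines and not against another gene. The median over the 83 members was −2.45, which is 5.46-fold below the reference, while the median over all genes tested was −0.01. Of the 83 members, 82 were below the reference and 77 were below it by more than 2-fold. The median was −2.45 for the large subunit, −2.59 for the small subunit, −2.79 for the stalk and −0.53 for the divergent paralogs. Summed over all genes, the members made up 5.39% to 7.96% of the liver signal of a mouse and 18.6% to 25.4% of the reference signal on the same array. In bulk tissue, fewer cells of a type and less RNA per cell cannot be told apart, and the same holds against a pool of dividing cell lines.

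**Figure D1:**
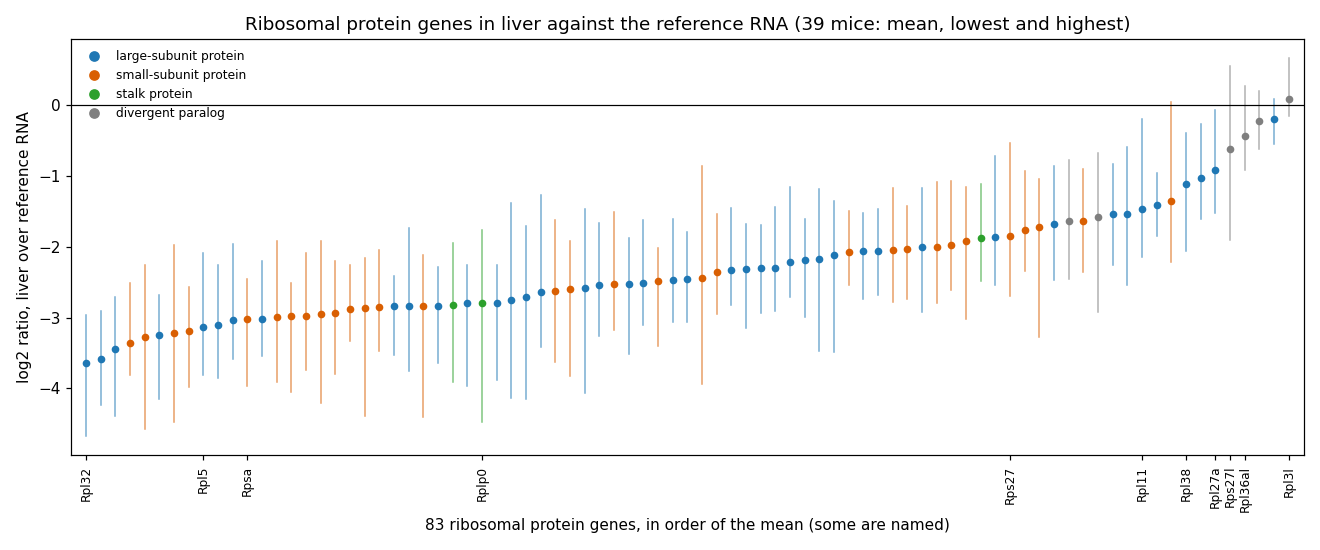
Mean log2 ratio of liver to cell line reference for the 83 ribosomal protein genes over the 39 mice, in order of the mean and coloured by class, with the lowest and highest mouse of each. Nearly all members lie below 0 (equal signal), around a median of −2.45, and the divergent paralogs lie toward the upper end.

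Rpl32, a large subunit protein often used as a reference gene in tissue work, was the lowest of all, at −3.63 on this scale or 12.4-fold below the reference. Rpl3, which lies near the peptide-joining centre, followed at −3.58. Toward the upper end were Rpl38 at −1.12, Rpl36a at −1.03, Rpl27a at −0.92, the paralogs Rps27l at −0.62 and Rpl36al at −0.44, and Rpl7l1 at −0.23. Rpl21 at −0.20 and Rpl3l at 0.09 came from spots mostly at background. The middle of the order was dense, with the quartiles at −2.85 and −1.87, and neighbours there did not differ beyond their spread between mice.

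The paralogs sat nearer to the reference than the genes they resemble. Rps27l was at −0.62 and Rps27 at −1.84, Rpl36al at −0.44 and Rpl36a at −1.03, Rpl22l1 at −1.64 and Rpl22 at −2.22, and Rpl7l1 at −0.23 and Rpl7 at −2.84. The probe of Rpl7l1 was dim and well above background on 35 arrays. These are ratios to one reference pool, so they rank how far each messenger in liver lay from the cell lines.

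Rpl32 also differed between the sets of mice. Its median log2 ratio was −4.14 in the 1.5 wks Ctrl mice and −4.20 in the 1.5 wks AggE mice, and between −3.80 and −3.27 in the other 6 groups. The 9 mice of the 1.5 wks set ran from −4.67 to −3.88 and the lowest mouse of the other sets was at −3.92, so the ranges overlapped at one end. The mice taken 24 hrs after the same 5-day regimen ran from −3.70 to −3.18. Some slides held mice of both kinds. On slide 6 the 1.5 wks mice had Rpl32 at −4.15, −4.19 and −4.20 and the 24 hrs mouse had it at −3.70. On slide 11 the 1.5 wks mouse was at −4.61 and the 4 wks mouse at −3.42, and on slide 8 the 1.5 wks mouse was at −3.88 and the 4 wks mice at −3.83, −3.35 and −3.87. These levels are a description without a test.

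The within-group SD of the log2 ratio had a median of 0.30 over the members and 0.17 over all genes tested. Many of the latter were dim: 8062 of the 17016 were not well above background on any array of the 24 hrs post-5-day set. The median SE of the fold change in that set was 0.20 for the members and 0.37 for the 8 hepatocyte markers. The spread among genes of like brightness was not compared. Rps27, a zinc-binding protein of the small subunit, varied most at 0.58, and Rpl28 (0.49) and Rpl7a (0.46) were also among the most variable. Among the members measured well above background on all 39 arrays, Rpl27a had an SD of 0.16 and Rps19 of 0.20, near that of the median gene. The median over the 83 members in a single mouse ran from −2.72 to −1.98.

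**Figure D2:**
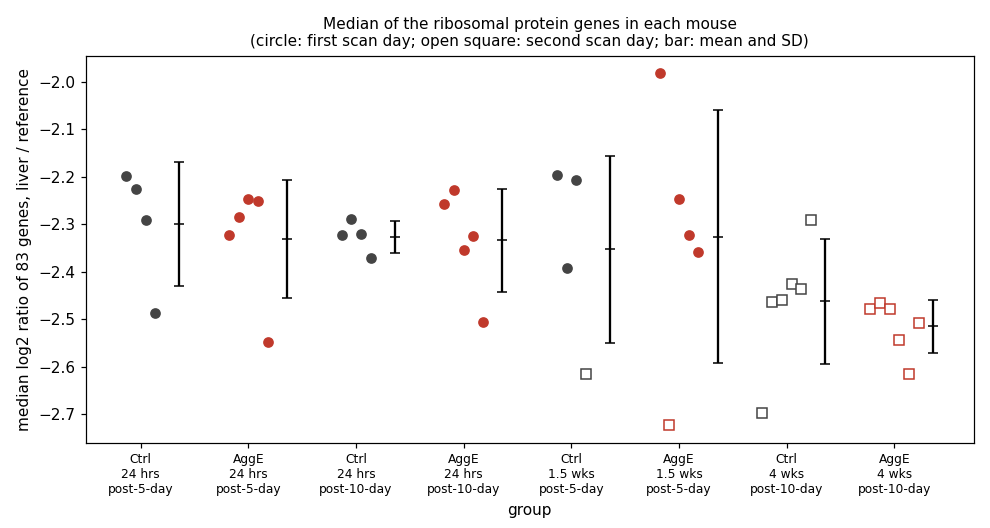
Median log2 ratio to the reference over the 83 ribosomal protein genes, 1 point for each of the 39 mice in the 8 groups. The points run from −2.72 to −1.98 and the AggE and Ctrl mice of each time point overlap.

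With quantile normalisation the median of the family differed between AggE and Ctrl mice by less than mice of a group differed from each other. The median log2 fold change (AggE over Ctrl) of the members was −0.05 after 5 days and −0.04 after 10 days of exposure when taken at 24 hrs, and it was 0.04 at 1.5 wks and −0.03 at 4 wks. Over all genes tested the same medians were 0.00, −0.00, −0.00 and 0.01. The spread of the member median between mice of one group was 0.15. Without normalisation between arrays the median was −0.36 at 4 wks, beyond that spread. By its brightest probe no member reached a 2-fold difference with an unadjusted p ≤ 0.05 at any time point, while a second probe of Rps2 did so at 4 wks. The spread of fold changes among the members was wider at 4 wks (SD 0.34) than at the earlier time points (0.18, 0.14 and 0.15).

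**Figure D3:**
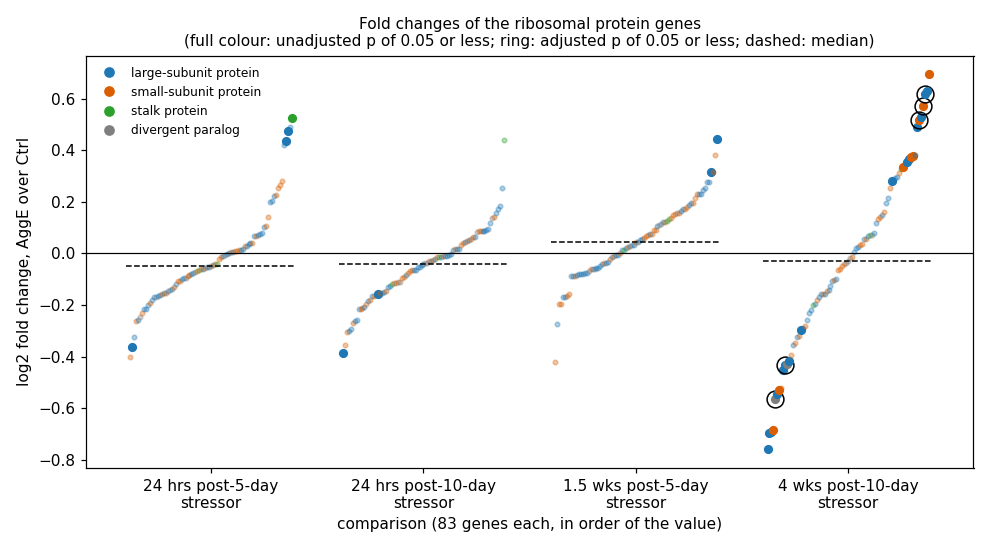
Log2 fold change (AggE over Ctrl) of each of the 83 ribosomal protein genes at the 4 time points, with the members past an adjusted p of 0.05 marked. The values lie around 0 at every time point and spread furthest at 4 wks, from −0.76 to 0.69.

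At 24 hrs post-5-day stressor, 3 members were higher and 1 was lower at an unadjusted p ≤ 0.05 and none passed after adjustment. Rpl5 and Rpl3, both of the large subunit, and the stalk protein Rplp0 were the 3 on the higher side, and Rpl13 the 1 on the lower. Among all genes, 7.89% were higher and 9.24% lower at that unadjusted threshold and 3.7% passed after adjustment by limma, beside 4.82% and 0% of the members. Of the 285 genes brighter than the median member, 8.77% had an unadjusted p ≤ 0.05 and 2.46% passed after adjustment.

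Rpl5, which carries 5S ribosomal RNA into the large subunit and with Rpl11 restrains Mdm2, had log2 ratios of −3.38, −3.30, −3.15 and −3.49 in the 4 Ctrl mice. It had −2.97, −2.66, −3.18, −2.56 and −2.90 in the 5 AggE mice. All but 1 of the AggE mice lay above all Ctrl mice. On the log2 scale the fold change was 0.48 (SE 0.16), with an unadjusted p of 0.00651 and an adjusted p of 0.0958 in the limma model.

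Rplp0, the protein that anchors the stalk and another common reference gene, had log2 ratios of −2.82, −2.73, −2.26 and −2.38 in Ctrl mice. In AggE mice they were −1.92, −1.88, −1.77, −2.25 and −2.29, so the groups overlapped only at their edge. AggE mice were higher by a log2 fold change of 0.53 (SE 0.24, adjusted p 0.234, limma), and a second, dimmer probe of the gene gave 0.24.

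Rpl3 had log2 ratios of −4.13, −4.01, −3.53 and −3.90 in Ctrl mice and −3.51, −3.41, −3.55, −3.38 and −3.44 in AggE mice. The AggE mice lay close together, 4 of the 5 above all Ctrl mice, with a log2 fold change of 0.44 (SE 0.19, adjusted p 0.208, limma). Rpl13 had a log2 fold change of −0.36 (SE 0.17, adjusted p 0.261, limma) by its brightest probe and −0.04 by its second probe.

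Among other members at 24 hrs post-5-day stressor, none with an unadjusted p ≤ 0.05, Rpl28 had a log2 fold change of 0.49 and Rpl13a, a reference gene and an agent of translational silencing outside the ribosome, one of 0.42. On the lower side Rps27a, made as a fusion with ubiquitin, had −0.40, Rpl36a −0.32, Rps28 −0.26 and Rpl38 −0.26. Rps27l, a paralog induced by p53, was the 1 member whose groups did not overlap, against 7.82% of all genes. Its Ctrl mice had log2 ratios of −0.46, −0.30, −0.49 and −0.37 and its AggE mice −0.50, −0.66, −0.68, −0.55 and −0.86. Its log2 fold change of −0.25 (SE 0.21) did not pass the test.

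The Ctrl and AggE arrays of both 24 hr sets lay on different slides, so slide and exposure cannot be told apart there. The share of liver signal taken by the members moved with the group at 24 hrs post-5-day stressor, from 6.26% to 6.91% in Ctrl and from 5.39% to 6.36% in AggE mice, and its part in the values above was not tested. The 5 pancreas markers, which also moved with the group, were at background on every array of both groups. In other marker lists the mean ranges of the groups overlapped, but single markers passed after adjustment: Spp1 (1.28), Fabp4 (1.26) and Birc5 (0.80) were higher in AggE mice, and the cholangiocyte marker Krt7 (−0.38) was lower at background. The part of these cells in the member values was not tested. The 95% intervals of 81 of the 83 members lay within 2-fold in either direction and those of 55 lay within 1.5-fold. For the other members a change of more than 1.5-fold was not excluded.

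At 24 hrs post-10-day stressor no member was higher and 2 were lower at an unadjusted p ≤ 0.05, and none passed after adjustment. Among all genes 1.66% were higher and 1.33% lower, and 0.0999% passed after adjustment. Rpl23, a large subunit protein that like Rpl5 and Rpl11 can bind Mdm2, had log2 ratios of −2.72, −2.75 and −2.84 in 3 Ctrl mice, the fourth spot having been rejected as an outlier by the scanner software. The 5 AggE mice had −3.21, −3.29, −3.01, −3.31 and −2.96, all below the Ctrl mice. The log2 fold change was −0.39 (SE 0.15, unadjusted p 0.0143, adjusted p 1.00, limma), and a second probe gave 0.19. The other was Rpl21, at −0.16, whose spots were mostly at background.

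Rpl23, Rpl17 and Rpl35a were the 3 members whose groups did not overlap at 24 hrs post-10-day stressor, against 1.89% of all genes, and all 3 were lower in AggE mice. Rpl17 had −2.53, −2.46 and −2.48 in 3 Ctrl mice, again without the rejected spot of the same array, and −2.96, −2.81, −2.64, −2.77 and −2.59 in AggE mice. None of the others passed an unadjusted p ≤ 0.05. Rplp0 had a log2 fold change of 0.44, Rpl3 of 0.26 with the same Ctrl array missing, Rpl35 of 0.18, Rpl28 of 0.17 and Rpl13a of 0.16. On the lower side were Rps28 at −0.35, Rps4x at −0.31, Rpl12 at −0.30 and Rpl36a at −0.29. All 83 intervals lay within 2-fold. The mean log2 ratio of 6 markers of Kupffer cells, the macrophages of liver, moved with the group, from 1.33 to 1.97 in Ctrl and from 2.09 to 2.34 in AggE mice, with Timd4 at background in Ctrl mice, and its part in the member values was not tested.

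At 1.5 wks post-5-day stressor 2 members were higher, none was lower at an unadjusted p ≤ 0.05, and none passed after adjustment. Among all genes 1.44% were higher, 0.946% were lower and 0% passed after adjustment. Rpl39, a small protein that lines the exit tunnel of the large subunit, had log2 ratios of −3.06, −2.77, −2.92 and −3.01 in Ctrl mice and −2.49, −2.55, −2.25, −2.51 and −2.70 in AggE mice. It was the 1 member whose groups did not overlap, against 0.817% of all genes. Its log2 fold change was 0.44 (SE 0.20, unadjusted p 0.0358, adjusted p 1.00, limma).

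Rpl17 was the other, with a log2 fold change of 0.31 (unadjusted p 0.0282, limma) at 1.5 wks after −0.26 at 24 hrs post-10-day stressor, in different mice. A second probe, well above background on all 39 arrays, gave −0.08 and 0.14 in turn, the opposite sign both times. By the brighter probe its Ctrl mice had −2.28, −2.31, −2.12 and −2.63 and its AggE mice ran from −2.51 to −1.62, and these overlapped. None of the following passed the unadjusted threshold. Rps23, which lies at the decoding site, had a log2 fold change of 0.38, Rps2 of 0.31 and Rpl35a of 0.28. On the lower side Rps9 had −0.42, Rpl29 −0.28, Rps10 −0.20, Rps15 −0.20 and Rpl3 −0.17. All 83 intervals lay within 2-fold. On the 1 slide that held both groups, 1 AggE mouse minus 3 Ctrl mice gave a median of −0.05 over the members.

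At 4 wks post-10-day stressor some members were higher and some lower in AggE mice, and most did not pass the unadjusted threshold. At an unadjusted p ≤ 0.05, 13 were higher and 12 were lower in AggE mice, or 30.1% of the 83, and 5 passed after adjustment. With slide as a random block no member passed, beside 0.139% of all probes. Without that block, 9.98% of all genes were higher and 12.1% lower, and 3.77% passed after adjustment. Among the 5 members, Rpsa and Rpl19 were higher and Rpl27a was lower. Rpl39l was not well above background on any array and is given no fold. Of 285 genes brighter than the median member, 27.4% had an unadjusted p ≤ 0.05, and their median log2 fold change was −0.22 against −0.03 for the members.

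Rpsa, a small subunit protein also known as the laminin receptor, had log2 ratios of −3.77, −3.84, −3.36, −3.95, −3.97 and −3.40 in Ctrl mice. In AggE mice it had −3.33, −3.25, −3.07, −3.06, −3.18 and −2.96. All 6 AggE mice lay above all 6 Ctrl mice, although the gap was narrow. This gave a log2 fold change of 0.57 (SE 0.16, adjusted p 0.0429, limma). Its second probe was dim, with signal well above background on 8 arrays.

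Rpl19, a large subunit protein that bridges the subunits, had log2 ratios from −3.88 to −2.73 in Ctrl mice with a median of −3.61. AggE mice 2 to 6 lay together between −2.83 and −2.61, and AggE mouse 1 lay at −3.69 among the Ctrl mice. The log2 fold change was 0.62 (SE 0.18, adjusted p 0.0484, limma), and a second probe gave 0.42.

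Rpl27a, of the large subunit, had log2 ratios of −0.64, −0.55, −0.07, −0.57, −0.37 and −0.58 in Ctrl mice. AggE mice had −0.69, −1.11, −0.98, −0.99, −0.87 and −0.72, all below all Ctrl mice. The log2 fold change was −0.43 (SE 0.09, adjusted p 0.0133, limma), the smallest p among the members. Rpsa and Rpl27a were the 2 members whose groups did not overlap, beside 1.76% of all genes.

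Of the members that did not pass after adjustment, Rps9, a small subunit protein that helps set decoding accuracy, had the highest log2 fold change, 0.69 (SE 0.21, adjusted p 0.0541, limma). Rpl28 had 0.63 and Rpl18 had 0.53. Rpl29 had between 0.25 and 0.49 by its 4 probes. Rps19, the gene most often mutated in Diamond-Blackfan anaemia, had 0.38 (adjusted p 0.0523, limma), with Ctrl mice from −3.33 to −2.70 and AggE mice from −2.83 to −2.53.

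Rpl11, the partner of Rpl5 in the 5S particle, had the lowest log2 fold change, −0.76 (SE 0.23, adjusted p 0.0588, limma). Its log2 ratios were −1.54, −1.68, −1.30, −0.72, −0.19 and −0.48 in Ctrl mice. They were −0.49, −1.92, −2.03, −2.14, −2.11 and −1.78 in AggE mice, of which mouse 1 stood with the upper Ctrl mice. Rpl38, a protein with a known part in patterned translation of Hox messengers, had −0.70, Rpl12 −0.69, Rps18 −0.68, Rpl30 −0.55 and Rps12 −0.53. Rpl5 itself had 0.15 and the members of the stalk and the paralog class lay between −0.43 (Rpl22l1) and 0.33 (Rplp0), leaving out Rpl39l. Rps6, the phosphorylated target of growth signalling, had 0.14.

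**Figure D4:**
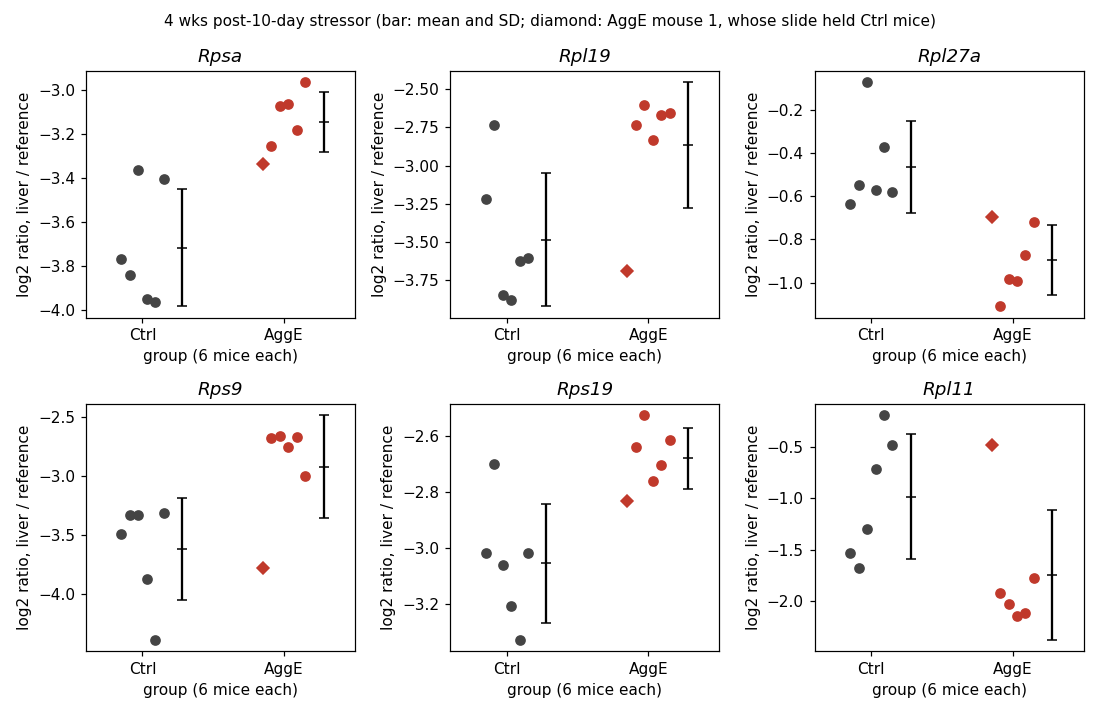
Log2 ratio to the reference in each of the 6 Ctrl and 6 AggE mice 4 wks post-10-day stressor for 6 ribosomal protein genes, with bars for the mean and SD of each group and a diamond for AggE mouse 1. AggE mouse 1 lies with the Ctrl mice for Rpl19 (−3.69) and Rpl11 (−0.49), while Rpsa and Rpl27a separate the groups.

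AggE mouse 1 was also the AggE mouse that shared a slide with Ctrl mice, Ctrl mice 4, 5 and 6. Within that slide, its difference from the 3 Ctrl mice was 0.44 for Rpsa and −0.19 for Rpl27a, but 0.01 for Rpl19, 0.08 for Rps9 and −0.02 for Rpl11. Of the members past the unadjusted threshold, 12 of the 13 higher and 8 of the 12 lower kept their sign on that slide. The median size in the called direction was 0.19 there against 0.52 in the full set. These members were picked by a fit that held the same mice, so the check is not independent of it. Ctrl mice on the other slide had Rpl11 at a mean of −1.51 and those on this slide at −0.47. The part of the slide in the other values was not tested further than this and the fits below.

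The count at 4 wks rested on single mice and on the treatment of slides. Without AggE mouse 1, 21 members were called (25.3%), beside 8.31% of all probes, where the full set of mice gave 6.02% and 3.2%. Without Ctrl mouse 2, 14 were called, and leaving out any one of the other mice gave 1 to 3. With slide as a random block no member was called. With slide as a fixed block 1 was called, Rpl5, which lies 0.79 higher in AggE mouse 1 than in Ctrl mice on its slide. The log2 fold change of Rpl27a stayed past the adjusted threshold without each of the 12 mice in turn, while Rpl19 and Rpsa were called in 3 each of those 12 fits. These 3 genes kept their direction in all 15 other settings. By limma their adjusted p there ran from 0.00278 to 0.512 for Rpl27a, from 0.00542 to 0.167 for Rpsa and from 0.00223 to 0.837 for Rpl19.

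The direction of the calls at 4 wks depended on the scaling between arrays. The unadjusted calls were 13 higher and 12 lower with quantile normalisation, and 2 higher and 29 lower without normalisation between arrays. They were 21 and 8 with median centring in place of loess, 20 and 7 without background correction, and 19 and 7 with the processed signals of the scanner software. At 4 wks the members took 22.2% to 23.0% of the reference signal on Ctrl arrays and 21.3% to 22.0% on AggE arrays, so the reference channel moved with the group. Its part in these values was not tested.

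The mean of some marker lists of other cells ran lower in AggE mice at 4 wks, but the ranges of the groups overlapped in each list given here. The mean log2 ratio of 14 leukocyte markers ran from −0.42 to −0.27 in Ctrl mice, where 10 were well above background on all arrays, and from −0.55 to −0.39 in AggE mice, where 9 were and Cd8a and Itgam were on none. Single leukocyte markers went both ways, with 8 of the 14 higher and 6 lower, a median log2 fold change of 0.04, and 1 past the adjusted threshold (Cd4, 0.19, higher). At an unadjusted p ≤ 0.05, 2 were higher and 5 were lower, the lowest Ptprc at −0.41. That of 5 cholangiocyte markers ran from −1.98 to −1.55 in Ctrl and from −2.28 to −1.96 in AggE mice, with Epcam on none of the AggE arrays. That of 6 Kupffer markers ran from 1.70 to 2.30 in Ctrl and from 1.29 to 2.01 in AggE mice. The median of their log2 fold changes was −0.35 and the lowest was −1.12. That of 4 proliferation markers ran from −1.85 to −1.60 in Ctrl and from −2.12 to −1.74 in AggE mice, with all 4 lower, a median of −0.20 and Top2a at background in AggE mice. The part of these cells in the member values was not tested.

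Different probes of a gene often disagreed. For 22 members another probe was also above background. Its log2 fold change had the sign of the brightest probe in 17 of the 22 in the first set, that taken 24 hrs after 5 days, and in 11, 10 and 12 in the 24 hrs post-10-day, 1.5 wks and 4 wks sets. At 4 wks Rps18 gave −0.68 by its brightest probe and 0.03 by the other, and Rpl7 gave −0.45 and then 0.19 and 0.29. Rps2 gave −0.16 by its brightest probe and 1.23 by another that was well above background on all 39 arrays (SE 0.35, adjusted p 0.0482, limma). Ribosomal protein genes have many processed pseudogenes of nearly the same sequence, and what each probe binds beside its gene was not tested.

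Members with and without the pyrimidine run at their start were set side by side without a test. For the 13 with the run and the 50 without, the median log2 fold changes at 24 hrs were −0.02 and −0.07 after 5 days and −0.00 and −0.04 after 10 days of exposure. They were 0.01 and 0.04 at 1.5 wks, and −0.12 and −0.02 at 4 wks, where 4 of 13 and 16 of 50 had an unadjusted p ≤ 0.05. For 24 hrs minus 4 wks post-10-day stressor the medians were 0.08 and −0.07. There 0 of 13 and 10 of 50 had an unadjusted p ≤ 0.05. Rpl28 and Rpl38, which both carry the run shown above, lay on opposite sides at 4 wks, at 0.63 and −0.70.

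The AggE-versus-Ctrl differences were then compared between time points. Between 24 hrs post-5-day and 24 hrs post-10-day stressor, no member differed at an unadjusted p ≤ 0.05 or after adjustment, beside 6.66% and 0.0353% of all genes, and the median difference was 0.02. Between 24 hrs and 1.5 wks post-5-day stressor, 4 members differed at the unadjusted threshold, none after adjustment, beside 7.95% and 0.0999% of all genes. Rpl5 (0.55) and Rpl3 (0.61) were more positive at 24 hrs, and Rpl39 (−0.62) and Rpl35a (−0.49) were less so. The median difference was −0.08.

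Between 24 hrs and 4 wks post-10-day stressor, 13 members, or 15.7%, differed at the unadjusted threshold and none after adjustment, beside 9.98% and 0.0823% of all genes. Rps9 (−0.79), Rpl19 (−0.69), Rpl18 (−0.68) and Rpsa (−0.56) were among the 9 that were more positive at 4 wks. Rpl11 (0.75), Rpl27a (0.55) and Rpl30 (0.53) were more positive at 24 hrs, as was Rpl39l at background. Rpl27a had an adjusted p of 0.244 and Rpl19 one of 0.495 in limma, so the calls at 4 wks were not shown to differ from the difference at 24 hrs.

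Other parts of the translation machinery were counted as lists. No gene of these lists passed after adjustment 24 hrs after the 10-day regimen, nor did any at 1.5 wks. At 24 hrs post-5-day stressor Eif2ak1, the haem-regulated kinase that slows initiation, fell by 0.59 on the log2 scale (SE 0.13, adjusted p 0.00728, limma), the 1 call among 17 genes of initiation control. None of 24 ribosome-associated and translation factor genes passed at any of the 4 time points.

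At 4 wks, 5 of 44 ribosome biogenesis genes passed, beside the 3.77% of all genes given above. With slide as a random block, calls over all probes at 4 wks dropped from 3.2% to 0.139%. Bysl, needed for the small subunit, rose by 0.48 on the log2 scale, while Rrn3, a factor of RNA polymerase I, fell by 0.36, Nop14 by 0.44, the kinase Riok1 by 0.49 and Sbds, which helps free the large subunit for translation, by 0.42. The list's median was −0.06. Of 15 growth signalling genes Eif4ebp2, which holds back cap-dependent initiation, rose by 0.91, and of 20 aminoacyl-tRNA synthetases Lars, which charges leucine tRNA, fell by 0.47.

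A pair of other families were read in the same way. Of 77 mitochondrial ribosomal protein genes, 28.6% had an unadjusted p ≤ 0.05 at 4 wks and 7 passed after adjustment. With slide as a random block, calls over all probes dropped from 3.2% to 0.139%, and those of these families were not counted. Mrps18a (0.58), Mrpl4 (0.56), Mrps26 (0.42) and Mrps27 (0.41) were higher in AggE mice. Mrpl16 (−0.48), Mrpl11 (−0.33) and Mrpl49 (−0.30) were lower. Of 39 proteasome subunit genes, 38.5% had an unadjusted p ≤ 0.05 and Psmd12 (−0.41) passed. Over all genes 22.1% had an unadjusted p ≤ 0.05 and 3.77% passed after adjustment. The 30.1% of the cytosolic ribosomal proteins lay between these, and the difference between the families was not tested.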

How the data were processed

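Per the labels, liver RNA (Cy5) and Universal Mouse Reference RNA (Cy3) were hybridised to dual dye 4x44k arrays without a dye swap, and the authors extracted spots with Agilent Feature Extraction (version 11.5.1.1 in the submitters' processing notes). The deposited scanner files gave median spot and background intensity on a linear scale, and the deposited value table gave log10 ratios of the processed intensity of both dyes, used as an alternative only. In R 4.3.3 with limma 3.58.1, intensities were background-corrected (normexp, offset 50), normalised by loess within arrays and quantiles between arrays, and converted to log2 ratios. Spots marked as outliers (0.418% to 1.94% of an array) were left out and spots of a probe averaged. The 25903 RefSeq probes were fitted together with 1 mean for each of the 8 groups (lmFit, eBayes), and p-values were adjusted by Benjamini-Hochberg over all of them, at a threshold of 0.05. Each gene was read by its brightest probe.

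Groups came from the channel description in the labels. Some titles and free-text descriptions name another duration, so 24 hrs post-5-day and 1.5 wks groups rest on that field. Member genes named in the text were those past the adjusted threshold, the 5 highest and 5 lowest fold changes of each comparison and a set of paralogs, stalk proteins and common reference genes. Others were named after their values were seen, and some results at single genes are not reported here. The members and gene lists were chosen with earlier results of these data known. The procedure was tested on simulated arrays with known changes. At 24 hrs post-5-day stressor it recovered 0%, 22.2% and 78.6% of members changed by 0.3, 0.5 and 1 on the log2 scale. At 4 wks it recovered 10.7%, 33.3% and 75%. False calls made up 9.2% and 4.86% of the calls in turn. Member changes of 0.5 or less were thus mostly missed. The number of arrays limits the precision. Alternatives covered background, normalisation, probes, samples, array weights, slide and replicate blocks.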

Additional observations from a re-analysis of the deposited data

Results flagged for a closer look

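In 34 groups of values (member medians, shares of signal and called genes by group), 5 had a mouse far from the rest, and chance alone gives a few such cases. The median log2 ratio of the ribosomal proteins was −2.55 in AggE mouse 5 at 24 hrs post-5-day stressor, with the next mouse at −2.32. The members took 6.12% of the liver signal in Ctrl mouse 4 at 24 hrs post-10-day stressor, and 6.70% in the next. They took 23.99% of the reference signal on the array of AggE mouse 5 at 24 hrs post-10-day stressor (next 22.9%) and 18.6% on that of AggE mouse 2 at 1.5 wks (next 23.8%). The latter array was scanned on another slide and scan day than the other AggE arrays of its group. Rpl19 was at −3.69 in AggE mouse 1 at 4 wks, with the next AggE mouse at −2.83. Among 36 probes beyond the brightest of each gene, a second probe of Rps2, well above background on all 39 arrays, had a log2 fold change of 1.23 (SE 0.35, adjusted p 0.0482, limma) at 4 wks, against −0.16 for the brightest probe.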

How the results depend on the processing

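The medians over the members at 24 hrs post-5-day and 24 hrs post-10-day stressor moved by less than the spread between mice of a group (0.15) under all alternatives run. Called members at 4 wks (5) numbered 0 with the processed signals, with Cy5 alone, with the deposited log ratios, with the contrast's own groups alone and with slide as a random block. They numbered 1 with slide as a fixed block, 2 with an offset of 16, with the mean over probes and with the replicate block, 8 with probes well above background alone, 11 without normalisation between arrays or with Aquantile, which leaves ratios as they are, and 20 with array weights. Leaving out one mouse gave 1 to 21. Called members at 24 hrs post-5-day stressor (0) numbered 1 without background correction, 1 with processed signals and 2 with array weights. The difference between 24 hrs and 4 wks post-10-day stressor had 1 call with array weights. Without normalisation between arrays or with Aquantile the median was −0.15 at 1.5 wks, −0.36 at 4 wks, 0.13 for the difference between 24 hrs and 1.5 wks and 0.25 for that between 24 hrs and 4 wks. With the deposited log ratios the difference between 24 hrs and 1.5 wks had a median of −0.24.

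These members changed sign at 4 wks. Without normalisation between arrays or with Aquantile Rpl9 was at −0.0035. Rpl39l, at background on every array, gave fitted values that are no measured folds: 0.38 under those settings, and 0.0203 at 4 wks and −0.0115 for the difference between 24 hrs and 4 wks with Cy5 alone. With the mean over probes Rpl7 was at 0.0084. With slide as a fixed block Rpl7 was at 0.0202, Rpl18 at −0.0204, Rpl22l1 at 0.28 and Rps18 at 0.0228. The cause was not tested. Over single left-out mice the median ran from −0.08 to 0.03 at 24 hrs post-5-day stressor, −0.08 to −0.02 at 24 hrs post-10-day stressor, −0.02 to 0.14 at 1.5 wks and −0.05 to 0.01 at 4 wks. The replicate numbers did not pair the samples: correlations of same-numbered mice ran from −0.41 to 0.51, over 0.1 in 5 of 18 pairs, and the replicate block left Rpl27a and Rpsa called. A fixed slide block could not be fitted for the 24 hr sets. Scan day as an alternative at 1.5 wks was chosen after seeing the data and gave 0 calls.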
